A study of Mus musculus with 6 samples.

Results

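The transcripts of 10 genes of the NF-κB system were followed in T cells kept at 26°C or 37°C. The 10 genes were 5 transcription factor genes (Rela, Rel, Relb, Nfkb1 and Nfkb2) and 5 genes of inhibitors (Nfkbia, Nfkbib, Nfkbie, Nfkbiz and Tnfaip3). They were taken by symbol, as a set chosen with earlier results of these data known, and each matched 1 of the 41079 genes listed for the 6 RNA-seq libraries. The cells were mouse D10 cells, which the study describes as a cloned helper T cell line, labelled as CD4+ and as derived from lymph node. Non-acclimated cells (3 replicates) were cultured for 24 h at 37°C and cold-acclimated cells (3 replicates) for 24 h at 26°C, with no other treatment, genotype or agent separating the groups. The comparison asked which transcripts changed in abundance when helper T cells were held for a day at the lower temperature. The study's methods describe the replicates as prepared independently, and the labels mention old and new extraction batches but do not assign the libraries to them.

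NF-κB factors are dimers built from the Rel family. RelA, c-Rel and RelB carry transactivation domains, whereas Nfkb1 and Nfkb2 encode long precursors that act as inhibitors themselves and are processed to the DNA-binding subunits p50 and p52. In resting cells the classical inhibitors IκBα, IκBβ and IκBε hold the dimers in the cytoplasm. Signals from the T cell receptor, CD28 or receptors of the TNF and IL-1 families activate the IKK kinases, which mark these inhibitors for degradation and let the dimers enter the nucleus. Several of the target genes encode the inhibitors again, which closes a negative feedback loop. In helper T cells the pathway is known for its part in survival, proliferation and cytokine transcription.

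All 6 libraries expressed the T cell program, but the replicates were not alike. Of 10 T cell markers, 9 had a mean of at least 1 TPM (the length-normalised share of transcripts in a library), with summed levels of 3110 to 4830 TPM in non-acclimated and 3590 to 4600 TPM in cold-acclimated cells. Cd4, which encodes the coreceptor named in the label, was present at 310 TPM in non-acclimated and 328 TPM in cold-acclimated replicate 3, yet did not exceed 1.3 TPM in replicates 1 and 2. Trac, the constant region of the T cell receptor α chain, was at 15.0 and 12.8 TPM in replicate 2 against 129 to 207 TPM in the other 4 libraries. The listed markers of B cells summed to at most 1.11 TPM and those of dendritic cells to at most 0.266 TPM in any library. Macrophage markers summed to between 2.46 and 21.2 TPM, with Cd14 at 0 throughout and the highest sums in replicate 3. Fibroblast markers reached 4.53 TPM, and the erythroid list, almost wholly Hba-a1, ranged from 61.3 to 487 TPM. Differences by replicate number were thus present beside the difference in temperature. The Cd4 values of replicates 1 and 2 stand against the CD4+ label, and whether all replicates came from 1 clone was not tested. Values without replicate 3 are given where they change the call of an NF-κB gene, and only as counts for the genes around them.

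TPM divides reads by gene length and scales each library to the same sum, so that a value is a share of the library. With the reads recovered from these values, the libraries held between 16899628 and 31290854 reads, and every NF-κB gene was counted from at least 215 reads in each library. Over the 12227 genes with a mean of at least 1 TPM, the median log2 fold change (cold-acclimated against non-acclimated, on log2(TPM + 1)) was −0.34. For the NF-κB genes, fold changes are therefore also given relative to this median. A gene was called when its Benjamini-Hochberg adjusted p from limma was under 0.05 and its log2 fold change was at least 1 in size. This rule called 2.63% of the tested genes higher and 16.0% lower in cold-acclimated cells. When libraries were instead scaled by the median of their ratios to the genes' geometric means, the median change was 0.02 and the shares were 6.56% and 8.79%. The study, which used DESeq2 with its own median of ratios normalization and the same thresholds, reported more genes higher than lower. In these bulk samples, fewer cells carrying a transcript and less of it per cell cannot be told apart.

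All 10 NF-κB genes passed the filter, and among them 1 was called higher and 1 lower. Nfkbiz, an atypical nuclear inhibitor, was upregulated 2.84-fold in mean TPM at 26°C. Nfkbie, a classical cytoplasmic inhibitor, was downregulated to 0.36 of its level at 37°C. The other 8 genes did not pass the test, which took no account of replicate number. In a fit that paired libraries by replicate number, Nfkb2 was called lower as well (limma adjusted p = 0.021), as were 21.9% of all tested genes. The median log2 fold change over the 10 was 0.16, which is 0.5 above the median of all tested genes. On leaving out single libraries, its sign changed only without non-acclimated replicate 3, where it was −0.13 (0.2 above the median gene). It fell to 0.03 (0.35 above) without cold-acclimated replicate 2. The 3 values of each group did not overlap for 4 of the 10 genes, with Nfkbiz higher and Nfkb1, Nfkb2 and Nfkbie lower in the cold. Such separation was found for 41.1% of all tested genes (9.69% higher, 31.4% lower), so the share among the NF-κB genes was near the background.

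**Figure D1:**
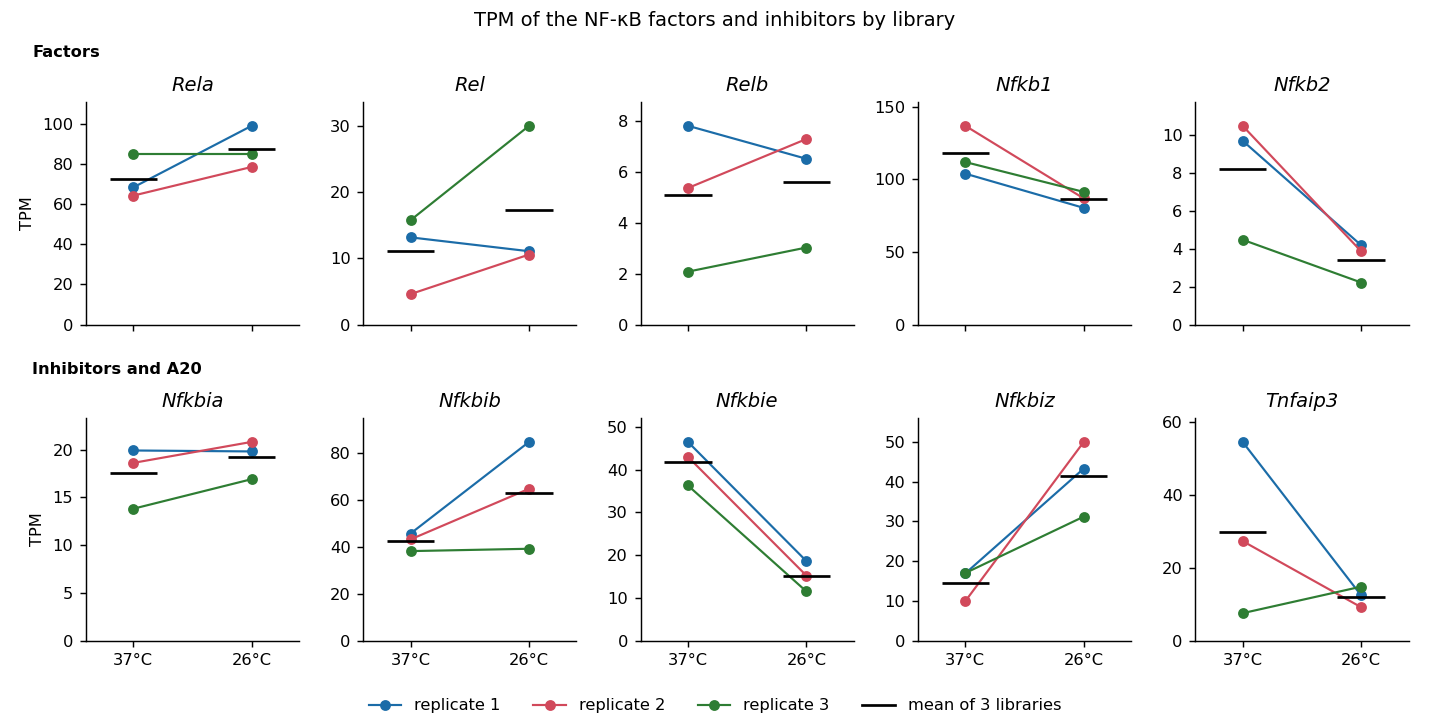
Level of each NF-κB gene in TPM (y axes from 0, one scale per gene) at 37°C and 26°C, with points for the 6 libraries, lines joining libraries of the same replicate number and black bars for the mean of 3 libraries. All 3 lines point up for Nfkbiz and all 3 point down for Nfkbie, Nfkb1 and Nfkb2, whereas Tnfaip3 spanned 7.53 to 54.5 TPM in non-acclimated cells alone.

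Genes of this family are themselves known as targets of NF-κB, and the DNA upstream of their starts was searched for the κB consensus, the motif of 10 bases that NF-κB dimers bind. RefSeq promoter sequences on GRCm38.p6, spanning 250 bases before to 50 bases after each start and read on both strands, were at hand for 7 of the 10 genes (not for Nfkb1, Relb and Nfkbiz). A match was present for 5 of the 7 (Rel, Nfkb2, Nfkbia, Nfkbie and Tnfaip3) and for neither Rela nor Nfkbib. Among all 27025 genes of the promoter set, 5.14% held a match in at least 1 of their promoters (4.51% of 32851 promoters). The 130 bases before the start are shown for the downregulated Nfkbie, for Nfkb2, which was lower in each cold-acclimated library without passing the test, and for Nfkbia, the classical inhibitor whose level moved least. Capitals mark the bases of κB matches on either strand, and each sequence is written 5′ to 3′ on the strand of its gene. They lie at chr17:45555570-45555699 on the plus strand (Nfkbie), chr19:46304607-46304736 on the plus strand (the most upstream of the 3 listed starts of Nfkb2) and chr12:55492648-55492777 on the minus strand (Nfkbia).
Nfkbie: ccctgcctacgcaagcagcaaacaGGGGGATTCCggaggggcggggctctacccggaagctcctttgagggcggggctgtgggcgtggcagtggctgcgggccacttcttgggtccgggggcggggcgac
Nfkb2: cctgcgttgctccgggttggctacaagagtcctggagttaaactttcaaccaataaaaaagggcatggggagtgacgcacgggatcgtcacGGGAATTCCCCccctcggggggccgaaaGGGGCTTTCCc
Nfkbia: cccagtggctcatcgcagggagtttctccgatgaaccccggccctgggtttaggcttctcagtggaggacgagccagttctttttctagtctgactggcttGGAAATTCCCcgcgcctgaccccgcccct

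The Nfkbie match lay at −106 to −97 from the start and the Nfkbia match at −29 to −20. At the start shown, Nfkb2 carried overlapping matches at −39 to −30 and −38 to −29, whose capitals run together, and another at −11 to −2. Its other listed starts also held matches. In Rel, overlapping matches lay at −92 to −83 and −91 to −82. Tnfaip3 held separate matches at −125 to −116 and −12 to −3 from its first listed start, and none at its second. The genes with a match thus included 1 that was called lower and 4 that were not called. Among the other tested genes with a promoter sequence, 18.2% of the 544 with a match and 16.7% of the 8569 without one were called lower, and 1.29% and 2.3% were called higher. A match is a stretch of letters and not a measured binding site.

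Levels in TPM are per gene length and can be set beside each other. In non-acclimated cells Nfkb1 was the most abundant, at 118 ± 17.1 TPM (SD, n = 3), followed by Rela at 72.4 ± 10.9 and by Nfkbib and Nfkbie at 42.4 ± 3.84 and 41.9 ± 5.20 TPM. Tnfaip3, Nfkbia, Nfkbiz, Rel, Nfkb2 and Relb followed, down to 5.09 ± 2.88 TPM for Relb. Only the first 2 steps of this order, from Nfkb1 to Rela and from Rela to Nfkbib, separated neighbours whose ranges did not overlap. In cold-acclimated cells Rela and Nfkb1 stood together at the top, at 87.4 ± 10.5 and 86.2 ± 5.53 TPM, and Nfkbib followed at 62.9 ± 22.9 TPM. Nfkbiz moved from the seventh to the fourth place and Nfkbie from the fourth to the seventh. Neighbours that did not overlap were then Nfkbiz and Nfkbia, and Tnfaip3 and Relb.

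Among the factors with a transactivation domain, none was called. Rela, which encodes the p65 subunit of the most common dimer (chr19:5686993-5698162, plus strand, GRCm39, as are all gene positions that follow), was measured at 68.3, 64.2 and 84.8 TPM in non-acclimated replicates 1 to 3 and at 99.0, 78.5 and 84.8 TPM in cold-acclimated replicates 1 to 3. The groups overlapped, replicate 3 having the same value at both temperatures. The log2 fold change was 0.27 ± 0.22 (SE; 95% interval −0.25 to 0.79; limma adjusted p = 0.42), which is 0.61 relative to the median gene. Under median of ratios scaling it was 0.67 (adjusted p = 0.077).

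Rel, the gene of c-Rel, a factor prominent in lymphocytes (chr11:23686847-23720969, minus strand), gave 13.2, 4.61 and 15.8 TPM at 37°C and 11.1, 10.6 and 30.1 TPM at 26°C. It was lower in the cold in replicate 1 and higher in replicates 2 and 3, with the highest value in cold-acclimated replicate 3. The log2 fold change of 0.57 ± 0.54 (95% interval −0.68 to 1.82; limma adjusted p = 0.48) left both directions possible. Relative to the median gene it was 0.91. The log2 fold change itself was 0.08 without non-acclimated replicate 2 and 0.10 without cold-acclimated replicate 3.

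Relb encodes the transactivating partner of p52 in the noncanonical branch (chr7:19340142-19363352, minus strand). It was the least abundant of the 10 at 37°C, with 7.82, 5.37 and 2.08 TPM, and gave 6.52, 7.30 and 3.03 TPM at 26°C. The spread between replicate numbers exceeded that between temperatures, replicate 3 being the lowest in both groups. Its log2 fold change was 0.18 ± 0.47 (limma adjusted p = 0.82), or 0.52 relative to the median gene.

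The precursor genes differed from these in that each was lower in all 3 cold-acclimated libraries than in any non-acclimated one. Nfkb1, which encodes p105 and p50 (chr3:135290416-135397422, minus strand), measured 104, 137 and 112 TPM at 37°C and 80.4, 86.9 and 91.4 TPM at 26°C. The groups did not overlap, but the log2 fold change of −0.44 ± 0.21 (95% interval −0.93 to 0.06; limma adjusted p = 0.18) was close to the median of all genes, at −0.10 relative to it. Under median of ratios scaling it was −0.04.

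Nfkb2 encodes p100 and p52 and is the substrate of the noncanonical branch (chr19:46285478-46300839, plus strand). It gave 9.71, 10.5 and 4.48 TPM at 37°C and 4.19, 3.87 and 2.22 TPM at 26°C. Replicate 3 was the lowest library of its group at both temperatures, and the groups were separated only by the gap between 4.48 and 4.19 TPM. The log2 fold change was −1.02 ± 0.38 (95% interval −1.90 to −0.14) and was not called (limma adjusted p = 0.092). Relative to the median gene it was −0.68. Libraries of the same replicate number deviated together across genes, and with the replicate number as a block the adjusted p was 0.021, so that Nfkb2 was then called lower, as were 21.9% of all tested genes under the block (3.75% were called higher). It was also called without non-acclimated replicate 3 (log2 fold change −1.36, adjusted p = 0.038) and without replicate 3 in both groups (−1.14, adjusted p = 0.019), but not under median of ratios scaling (−0.68, adjusted p = 0.25). The gene shares 2045 bp with the noncoding gene 4833438C02Rik and 316 bp with Psd on the opposite strand, whose levels did not exceed 9.90 and 2.69 TPM. Whether reads were assigned by strand is not given in the sources used here.

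The classical inhibitors diverged from each other. Nfkbie, the gene of IκBε (chr17:45866626-45874095, plus strand), fell from 46.5, 43.0 and 36.3 TPM in non-acclimated replicates 1 to 3 to 18.6, 15.2 and 11.5 TPM in cold-acclimated replicates 1 to 3. The groups were far apart, and the replicate numbers kept the same order at both temperatures. The log2 fold change was −1.43 ± 0.26 (95% interval −2.03 to −0.83; limma adjusted p = 0.013), or −1.10 relative to the median gene, with changes of −1.28, −1.44 and −1.58 within replicates 1 to 3. Among all tested genes, 16.0% were called lower, and 1429 of the 12227 (11.69%) fell by more than Nfkbie on this scale. Nfkbie was also called under median of ratios scaling (−1.05, adjusted p = 0.042) and in 11 of 13 alternatives in all (adjusted p 0.0067 to 0.062). It passed neither without non-acclimated replicate 1 (adjusted p = 0.057) nor without non-acclimated replicate 2 (adjusted p = 0.062).

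Nfkbib, the gene of IκBβ (chr7:28457676-28466069, minus strand), gave 45.7, 43.2 and 38.2 TPM at 37°C and 84.8, 64.8 and 39.2 TPM at 26°C. Replicates 1 and 2 were higher in the cold than any non-acclimated library, whereas replicate 3 was nearly the same at both temperatures. The log2 fold change of 0.50 ± 0.31 (95% interval −0.22 to 1.22; limma adjusted p = 0.28) was not called. The change was 0.83 relative to the median gene, and 0.89 under median of ratios scaling (limma adjusted p = 0.11). The gene shares 718 bp with Ccer2 on the opposite strand, which did not exceed 4.52 TPM.

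Nfkbia, the gene of IκBα (chr12:55536194-55539432, minus strand), is the classical feedback inhibitor and holds the κB match printed among the promoter sequences. It gave 19.9, 18.6 and 13.8 TPM at 37°C and 19.8, 20.8 and 16.9 TPM at 26°C. These groups overlapped, and the log2 fold change was 0.14 ± 0.25 (95% interval −0.43 to 0.71, limma adjusted p = 0.72). It was 0.48 relative to the median gene, and 0.52 under median of ratios scaling (limma adjusted p = 0.19).

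Nfkbiz encodes IκBζ, an inducible nuclear protein that binds p50 dimers and is known to adjust the transcription of a subset of target genes (chr16:55631740-55659018, minus strand). It rose from 16.9, 9.91 and 17.0 TPM in non-acclimated replicates 1 to 3 to 43.3, 50.0 and 31.2 TPM in cold-acclimated replicates 1 to 3. All 3 cold-acclimated libraries lay above all non-acclimated ones, with the smallest change in replicate 3. The log2 fold change was 1.46 ± 0.31 (95% interval 0.74 to 2.17; limma adjusted p = 0.019), or 1.79 relative to the median gene, and changes within replicates were 1.30, 2.22 and 0.84. Among all tested genes 2.63% were called higher, and 203 of the 12227 (1.66%) rose by more than Nfkbiz on this scale. It was called under median of ratios scaling (1.84, adjusted p = 0.017) and in 9 of 13 alternatives in all (adjusted p 0.0091 to 0.076). The call was lost without non-acclimated replicate 1 (adjusted p = 0.056) or 2 (0.076) and without cold-acclimated replicate 1 (0.075) or 2 (0.074).

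Tnfaip3 encodes A20, a ubiquitin-editing enzyme that shuts off signalling upstream of IKK (chr10:18876658-18891158, minus strand). It measured 54.5, 27.3 and 7.53 TPM at 37°C and 12.4, 9.16 and 14.8 TPM at 26°C. Replicates 1 and 2 were lower in the cold, by log2 changes of −2.05 and −1.48, whereas replicate 3 went the opposite way with 0.89. The spread among non-acclimated libraries was the widest of the 10 genes, and the log2 fold change of −0.88 ± 0.63 (95% interval −2.34 to 0.58; limma adjusted p = 0.35) was not called. Relative to the median gene it was −0.54. Without replicate 3 in both groups the log2 fold change itself was −1.77 (limma adjusted p = 0.016). It was −1.62 without non-acclimated replicate 3 alone (limma adjusted p = 0.035) and −0.27 without non-acclimated replicate 1 (limma adjusted p = 0.77). Replicate 3 is the number whose libraries contained Cd4, and the part of that difference between replicates in the Tnfaip3 values was not tested.

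**Figure D2:**
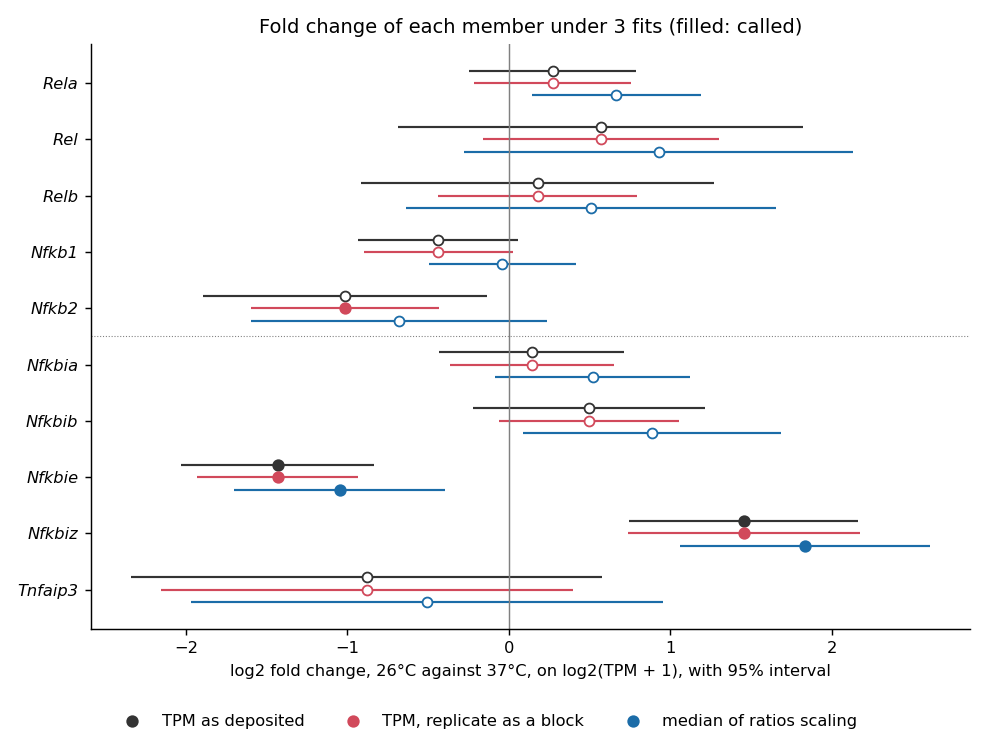
Log2 fold change on log2(TPM + 1) with its 95% interval (x axis) for each NF-κB gene from limma on TPM as deposited (black), with the replicate number as a block (red) and after median of ratios scaling (blue), where filled points were called. Nfkbie and Nfkbiz were called in all 3 and Nfkb2 with the block alone, while the median of ratios points of every gene lie to the right of the black ones.

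The balance between the transcripts of the classical inhibitors and of the factors was compared as a ratio within each library, which does not depend on the scaling of TPM. Nfkb1 and Nfkb2 were counted as factors, although their precursors also act as inhibitors, and protein was not measured. The summed TPM of Nfkbia, Nfkbib and Nfkbie was 0.552, 0.473 and 0.403 of the summed TPM of the 5 factors in non-acclimated replicates 1 to 3 and 0.613, 0.539 and 0.320 in cold-acclimated ones. The ratio was higher in the cold in replicates 1 and 2 and lower in replicate 3. The mean log2 change was 0.0 with an SD of 0.29 over the 3 replicate numbers, so no shift beyond their spread was seen. The value rested on replicate 3, without which, in both groups, the mean was 0.17 from changes of 0.15 and 0.19.

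The makeup of both sums differed between the groups in all 3 replicates, while their ratio did not move one way. Nfkbie contributed 41.5%, 41.0% and 41.1% of the classical inhibitor TPM in non-acclimated cells and 15.1%, 15.1% and 17.0% in cold-acclimated cells. Nfkbib went from 40.8%, 41.2% and 43.2% to 68.8%, 64.2% and 58.0%. IκBε and IκBβ transcripts were thus about equal at 37°C, with Nfkbie to Nfkbib ratios of 1.02, 0.994 and 0.951, and no longer so at 26°C, with ratios of 0.219, 0.235 and 0.293. Nfkbia contributed between 15.7% and 17.8% at 37°C and between 16.1% and 25.0% at 26°C, ranges that overlapped.

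Among the factors, Nfkb1 made up 51.3%, 61.8% and 51.1% of the summed TPM at 37°C and 40.0%, 46.4% and 43.2% at 26°C, with no overlap. Rela made up 33.6%, 29.0% and 38.7% at 37°C and 49.2%, 41.9% and 40.1% at 26°C, likewise with no overlap. The sum itself ranged from 203.1 to 221.6 TPM in non-acclimated cells and from 187.1 to 211.6 TPM in cold-acclimated cells. Nfkbiz stood below Nfkbie in all 3 non-acclimated libraries, with ratios of 0.364, 0.231 and 0.469, and above it in all 3 cold-acclimated libraries, with ratios of 2.33, 3.28 and 2.71. These shares and ratios are descriptions without a test. Shares of one sum depend on each other, so the share of a gene can rise while its own level stays the same. In replicate 3, Rela was at 84.8 TPM at both temperatures and Nfkbib at 38.2 and 39.2 TPM, yet both shares were higher in the cold.

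**Figure D3:**
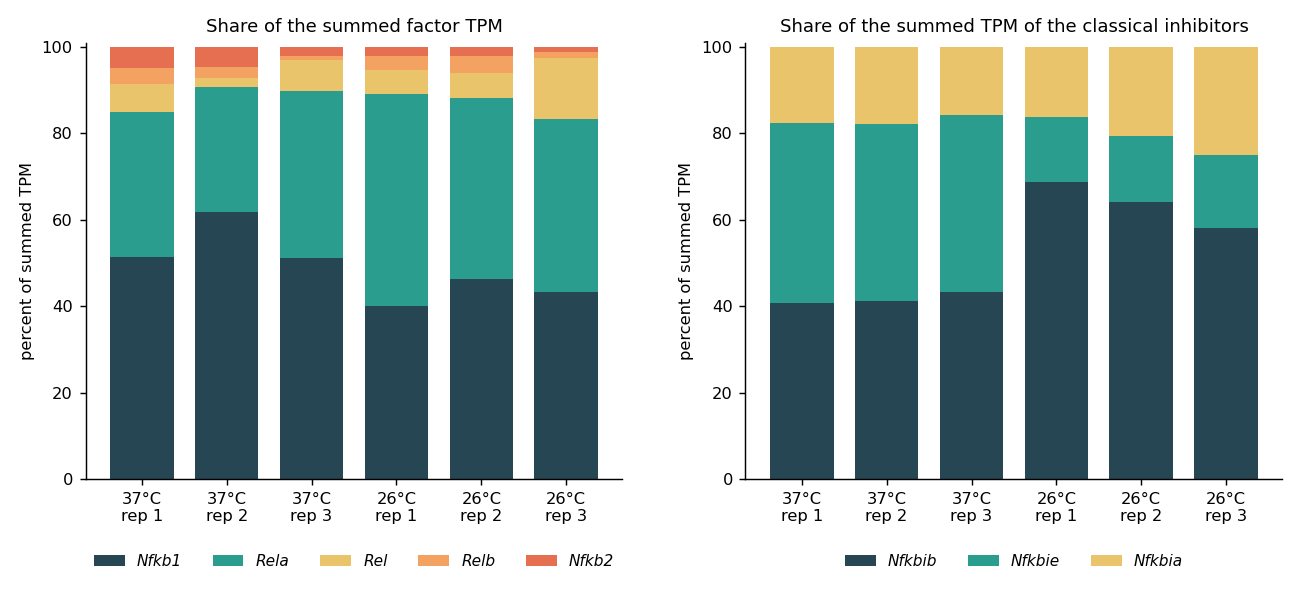
Share of each gene in the summed TPM of the 5 factors (left) and of the 3 classical inhibitors (right), in percent, with 1 stacked bar per library. Nfkbie took 41.0% to 41.5% of the inhibitor sum at 37°C and 15.1% to 17.0% at 26°C, and Nfkb1 took 51.1% to 61.8% of the factor sum at 37°C and 40.0% to 46.4% at 26°C.

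The genes that act around the factors and inhibitors were taken from 9 lists holding 100 genes, of which 81 passed the filter. In cold-acclimated cells 3 of the 81 were called higher and 9 lower, against 2.63% and 16.0% of all tested genes. Their median log2 fold change was −0.16, or 0.18 relative to the median gene. The balance of directions turned with the scaling, the split being 9 higher and 3 lower under median of ratios scaling, where 6.56% and 8.79% of all tested genes were called. With the replicate block it was 5 higher and 13 lower, beside 3.75% and 21.9% of all tested genes.

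Upstream kinases carried a called gene in each direction among 10 tested. Ikbke, the gene of the IKK-related kinase IKKε, fell from 14.4, 12.7 and 12.8 TPM to 1.61, 1.01 and 2.49 TPM, with a log2 fold change of −2.44 ± 0.29 (limma adjusted p = 0.007). Tab3, whose product links ubiquitin chains to the kinase TAK1, rose from 21.6, 22.7 and 16.6 TPM to 50.6, 50.6 and 38.6 TPM (1.16 ± 0.24, limma adjusted p = 0.019), but was called in only 2 of the 6 fits that left out a single library (adjusted p up to 0.079). The core IKK genes, named here after their values were seen, were not called, Chuk having a log2 fold change of −0.18, Ikbkb of −0.34 and Ikbkg of −0.51. Of the 5 genes that connect the T cell receptor to IKK, Prkcq, the gene of protein kinase C theta, was called lower (110, 182 and 97.2 TPM against 35.4, 61.8 and 57.4 TPM, limma adjusted p = 0.032), although not under median of ratios scaling (adjusted p = 0.08).

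Among the 16 adaptors and ubiquitin ligases, 1 was called higher and 4 lower, against 2.63% and 16.0% of all tested genes. Under median of ratios scaling the split was 2 higher and 2 lower, against 6.56% and 8.79% of all tested genes. Traf6, the ubiquitin ligase of IL-1 and Toll-like receptor signalling, rose from 48.3, 38.7 and 28.9 TPM to 135, 115 and 89.7 TPM (1.54 ± 0.28, limma adjusted p = 0.012), and was called in 3 of the 6 fits that left out a single library (adjusted p up to 0.059). Irak4, a kinase that acts upstream of Traf6 in the same receptor pathway, fell from 22.6, 19.7 and 28.6 TPM to 4.91, 2.17 and 5.07 TPM (−2.33 ± 0.33, limma adjusted p = 0.0078). Traf1, an adaptor of TNF receptors, fell from 30.9, 21.5 and 24.1 TPM to 6.19, 2.66 and 6.21 TPM (−2.19 ± 0.34, limma adjusted p = 0.009). For each of these 3 genes the groups did not overlap, as was found for 41.1% of all tested genes. Birc3, of the same list, was not called on TPM as deposited (−1.16, limma adjusted p = 0.051). With the replicate block it was called lower (limma adjusted p = 0.019). Ikbke, Irak4 and Traf1 were the 3 pathway genes also called lower under median of ratios scaling, and all 3 were called whichever single library was left out.

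Of 9 deubiquitinases and other brakes, Cyld, which removes ubiquitin chains from upstream adaptors, was called lower (32.0, 28.1 and 24.5 TPM against 11.6, 12.3 and 15.4 TPM, limma adjusted p = 0.023), but not under median of ratios scaling (adjusted p = 0.078). Of 17 receptors listed, 8 passed the filter. Tnfrsf4, the gene of the costimulatory receptor OX40, was called higher at a low level, with 0.683, 0.19 and 0.973 TPM against 2.98, 2.34 and 4.43 TPM from only 2 to 58 reads (limma adjusted p = 0.029). It passed the filter only through the cold-acclimated libraries, so its call was favoured by the filter, and it was called in only 1 of the 6 fits that left out a single library. Without Tnfrsf4, 2 pathway genes were called higher. Tlr4, the receptor for lipopolysaccharide, was called lower, with 5.53, 9.85 and 4.77 TPM against 1.15, 2.44 and 1.69 TPM (limma adjusted p = 0.028), but not under median of ratios scaling (adjusted p = 0.057) and in only 2 of the 6 fits that left out a single library. Among mRNA decay factors known to act on transcripts of this family, Zfp36, the gene of tristetraprolin, was called lower (152, 63.2 and 75.8 TPM against 45.4, 39.2 and 29.8 TPM, limma adjusted p = 0.048), with none of the other 6 tested called. The call for Zfp36 was lost under median of ratios scaling (adjusted p = 0.16) and on leaving out any single library.

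None of the 16 tested target genes was called in either direction on TPM as deposited. Irf1, an interferon regulatory factor, passed the adjusted p but not the fold threshold, with 74.0, 63.1 and 48.9 TPM against 28.5, 34.5 and 37.6 TPM (log2 fold change −0.86 ± 0.25, limma adjusted p = 0.047). At this adjusted p and with a fold change of any size, 17.4% of all tested genes were lower. Other settings did call target genes, named here after their values were seen. Under median of ratios scaling 2 of the 16 were called higher, where 6.56% of all tested genes were. These were Icam1, an adhesion molecule (log2 fold change 1.27, limma adjusted p = 0.026), and Bcl2l1, the gene of the survival factor Bcl-xL (1.88, limma adjusted p = 0.042). With the replicate block, Bcl2l1 was called higher (limma adjusted p = 0.049) and the chemokine gene Cxcl10 lower (−2.15, limma adjusted p = 0.029). Without replicate 3 in both groups, 3 target genes were called higher and 3 lower. The share of all tested genes called in that fit is not given here, so these counts have no background to be read against. None of 8 tested ligands was called on TPM as deposited, and Tnfsf14 (the gene of LIGHT), the most abundant over the 6 libraries together, gave 137, 330 and 55.7 TPM against 50.3, 63.1 and 10.6 TPM (−2.03 ± 0.80, limma adjusted p = 0.11). Bcl3, an atypical inhibitor that binds p50 and p52 dimers in the nucleus, gave 110, 151 and 28.7 TPM against 47.3, 27.5 and 7.01 TPM (−1.83 ± 0.79, limma adjusted p = 0.13). For both genes the groups overlapped, while each replicate number was lower in the cold. With the replicate number as a block they were called lower, at adjusted p = 0.0053 for Tnfsf14 and 0.007 for Bcl3. Lta, the gene of lymphotoxin α, was called higher with the block (1.14, limma adjusted p = 0.015) and under median of ratios scaling (1.43, limma adjusted p = 0.03). It was counted from only 16 to 126 reads per library. Bcl3 thus stood opposite in sign to Nfkbiz, but was called neither on TPM as deposited nor under median of ratios scaling (limma adjusted p = 0.24). Nfkbid, listed with Bcl3 among the atypical inhibitors, had a log2 fold change of 0.08 (limma adjusted p = 0.91). Its changes within replicates 1 to 3 were 0.68, 0.67 and −1.12.

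**Figure D4:**
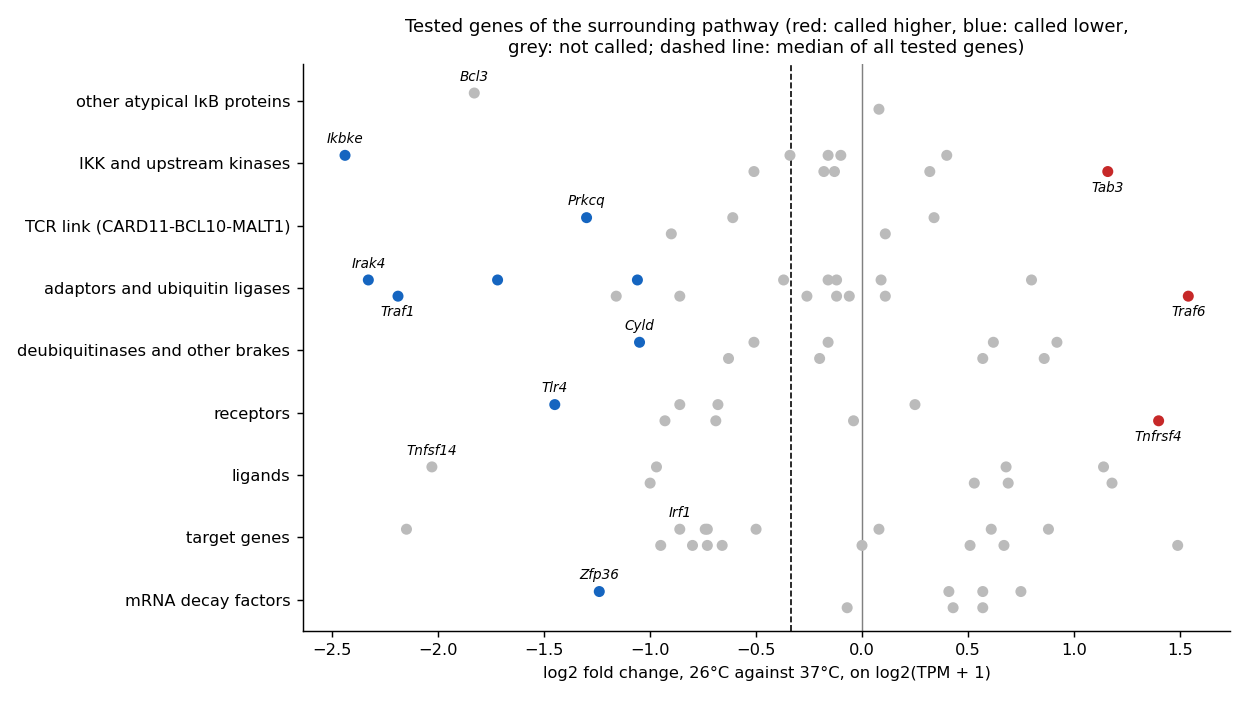
Log2 fold change on log2(TPM + 1) of the 81 tested pathway genes (x axis) by list (y axis), with called genes in red (higher) or blue (lower), the others in grey, and a dashed line at the median of all tested genes. The 3 red points are Tab3, Traf6 and Tnfrsf4, and the 9 blue points lie in 6 of the lists, none of them the ligands, the target genes or the other atypical inhibitors.

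Across the 6 libraries, the genes with a mean of at least 5 TPM whose log2(TPM + 1) followed Nfkbiz most closely were Vcpkmt (Pearson r = 0.9923), Manbal (0.9919) and 4930429P21Rik (0.9916). Those nearest to Nfkbie were Dennd4b (0.9955), Lrrc8a (0.9935) and Amigo1 (0.993). These correlations are descriptions over 6 libraries that fall into 2 temperatures, and the difference between groups that these genes share enters each of them.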

How the data were processed

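RNA sequencing was analysed for 3 cold-acclimated and 3 non-acclimated libraries. The authors selected poly(A) RNA, made directional libraries and sequenced paired ends. The submitters' processing notes name FastQC 0.11.7, Trimmomatic 0.38, HISAT2 2.1.0, featureCounts 1.6.3 and GRCm39. The annotation release, the strand setting and the gene lengths were not given in the sources used here. The deposited values are TPM. Reads per gene were recovered from the step of each gene's TPM values, with depths given with the results. The fit was limma 3.58.1 in R 4.3.3 (eBayes with trend) on log2(TPM + 1), over 12227 genes whose mean TPM reached 1, without a replicate term. Tests were two-sided, with Benjamini-Hochberg adjustment over all these genes. The fit was tried on simulated data with as many genes raised as lowered and no replicate effect. That trial does not cover the pairing by replicate number or the shifted median of the real libraries. Adding 1 understates the change of low genes. The deviations of same-numbered libraries from their group means correlated across genes (r = 0.4805, 0.503 and 0.5117, against −0.4078 to 0.01857 for other pairs), so the numbers were taken to pair libraries and block values are given where they change a call. The NF-κB genes and all lists were chosen with earlier results of these data known. Beyond the 10 genes, those named were the 2 with the smallest p per direction and list past an adjusted p of 0.05 (or, with none, the most abundant gene of the list), plus the 3 best correlated with the largest rise and the largest fall among the 10. Chuk, Ikbkb, Ikbkg, Nfkbid, Birc3, Icam1, Bcl2l1, Cxcl10 and Lta fall outside this rule and were named after their values were seen. So were Cd4, Trac, Cd14 and Hba-a1 among the cell type markers.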

Additional observations from a re-analysis of the deposited data

How the results depend on the processing

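Each NF-κB gene was refitted under 13 alternatives: log2(TPM + 0.1), no filter, median of ratios scaling, a replicate block, voom on recovered reads, leaving out each library in turn or replicate 3 in both groups, and, added after seeing the data, median of ratios scaling with the replicate block. Of these 130 values, 116 kept direction and side of the threshold, 5 came to pass it, 6 no longer passed and 3 changed sign: Relb once non-acclimated replicate 3 (−0.25) or cold-acclimated replicate 2 (−0.02) was left out, and Nfkbia without non-acclimated replicate 3 (−0.01). Over all single libraries left out, Relb ranged from −0.25 to 0.51 and Nfkbia from −0.01 to 0.24. The number of NF-κB genes called higher was 1, and 0 to 1 on leaving out single libraries. The number called lower was 1, and 0 to 3 on leaving out single libraries, 2 with the replicate block and 3 without replicate 3 in both groups. Pathway genes called higher numbered 3, against 9 under median of ratios scaling, 8 with voom, 5 with the replicate block, 11 with both scaling and block, 10 without replicate 3 in both groups and 0 to 6 on leaving out single libraries. Those called lower numbered 9, against 3, 4, 13, 8, 16 and 3 to 9 in the same order, and 5 without a filter. Shares of all tested genes are given only for TPM as deposited, median of ratios scaling and the replicate block. Counts of NF-κB and pathway genes from the other fits thus have no background to be read against. The replicate block changed no other call of an NF-κB gene than that of Nfkb2. The mean log2 change of the inhibitor to factor ratio was 0.0, and ranged from −0.19 to 0.28 on leaving out single libraries, highest without cold-acclimated replicate 3. With 3 libraries per group, the 95% intervals of the 8 NF-κB genes not called were wide, from −0.93 to 0.06 for Nfkb1 and from −2.34 to 0.58 for Tnfaip3, and the libraries of a group differ by replicate number.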
